A study of Mus musculus with 6 samples.

Results

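The transcripts described here are 7 genes that were taken as a measure of how much blood each tumor held: the adult hemoglobin genes Hba-a1, Hba-a2, Hbb-bs and Hbb-bt, the erythroid heme enzyme gene Alas2, and the platelet chemokine genes Pf4 and Ppbp. They were found by symbol among the 31130 genes of the count tables, and all 7 were present once in every table. RNA was sequenced from tumor tissue on day 21 in 2 groups of 3 tumors, called LC and IP+LC. Both groups were wild-type female C57BL/6 mice, 6 to 8 weeks old, and all of them received LLC (Lewis lung carcinoma) cells, a line from a mouse lung tumor that here carried a green fluorescent protein, through the chest wall into the left lung on day 14. The IP+LC mice were given bleomycin, which damages lung epithelium and is followed by scarring, by oropharyngeal aspiration at 2.0 mg/kg on day 0, and the LC mice were given saline. The tissue was sequenced whole, so that the host's vessels, blood and lung cells were counted together with the LLC cells. Lysis of red blood cells is described in the methods for flow cytometry and not for the RNA. The labels number the tumors without naming the mice, and p-values then measure only the spread between these samples.

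Hemoglobin is a tetramer of alpha and beta chains, and its mRNAs make up most of the mRNA of reticulocytes and are still present in circulating red blood cells. The adult mouse has a pair of alpha genes and, in the C57BL/6 strain, a pair of beta genes. Alas2 encodes the erythroid form of the enzyme that starts heme synthesis, and is used by developing red cells. Pf4 and Ppbp encode CXC chemokines that megakaryocytes pack into the alpha granules of platelets. In the mouse, Pf4 is also transcribed by macrophages. The question addressed was whether the blood-derived transcripts differed between tumors that grew in bleomycin-treated and in saline-treated lungs.

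The libraries held between 592733 and 1631066 unique molecular identifiers (UMIs), each of which marks 1 captured mRNA molecule at its 3′ end, so that a count does not grow with the length of the transcript. LC replicate 1 was the smallest library, and the floor of 3 UMIs below which no fold is given equalled 5.17 CPM in it and 1.75 to 2.54 CPM in the other 5. CPM are a gene's UMIs relative to those of all tested genes of the library, after TMM scaling. Of the 7 genes, 6 had enough UMIs to be tested, and Alas2 did not. An adjusted p-value below 0.1 in edgeR's quasi-likelihood test over 11240 genes was found for 5 of the 7, and all 5 were lower in the IP+LC group. Of all tested genes, 36.4% passed this limit, 19.6% being lower and 16.8% higher in the IP+LC group. A negative log2 fold change was found for 48.9% of all tested genes and for all 6 tested members. Leaving out LC replicate 2 or LC replicate 3 lowered the count from 5 to 3, while the calls over all genes went from 4088 to 2585 and 3039. Leaving out IP+LC replicate 1 or 2 lowered it to 1, with 2660 and 2265 calls over all genes. With LC replicate 1 left out it was 5, with 6691 calls over all genes.

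The alpha genes lie on chromosome 11 of GRCm38, Hba-a1 (ENSMUSG00000069919) from 32283511 to 32284465 and Hba-a2 (ENSMUSG00000069917) from 32296489 to 32297298, both on the plus strand. The beta genes lie on the minus strand of chromosome 7, Hbb-bt (ENSMUSG00000073940) from 103812524 to 103813996 and Hbb-bs (ENSMUSG00000052305) from 103826534 to 103828096. Ppbp (ENSMUSG00000029372), from 90768518 to 90770063, and Pf4 (ENSMUSG00000029373), from 90772435 to 90773383, are neighbours on chromosome 5 with 2371 bases and no other gene between them. Alas2 (ENSMUSG00000025270) lies on chromosome X from 150547375 to 150570638. The 250 bases before the start of transcription in RefSeq are shown for 5 of the genes because the hemoglobin genes moved together across the tumors while the chemokine neighbours did not. The sequences are from RefSeq's promoter table on GRCm38.p6, in which all 7 genes were matched, and read in the direction of the gene. The gene positions above are GENCODE's. In the 4 hemoglobin genes and Alas2 the start in RefSeq lies inside them, so that these windows reach into the positions given. Capitals mark GATAA on either strand (TTATC when on the opposite one), the letters of the core of GATA factor sites, and TATAA on the strand of the gene.
Hba-a1, chr11:32283422-32283671, plus strand: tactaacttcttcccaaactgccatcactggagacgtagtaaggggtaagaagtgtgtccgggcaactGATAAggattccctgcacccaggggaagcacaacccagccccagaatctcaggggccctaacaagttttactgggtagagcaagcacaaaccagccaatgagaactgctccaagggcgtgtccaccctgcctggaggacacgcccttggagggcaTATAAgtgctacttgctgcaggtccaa
Hbb-bs, chr7:103827929-103828178, minus strand: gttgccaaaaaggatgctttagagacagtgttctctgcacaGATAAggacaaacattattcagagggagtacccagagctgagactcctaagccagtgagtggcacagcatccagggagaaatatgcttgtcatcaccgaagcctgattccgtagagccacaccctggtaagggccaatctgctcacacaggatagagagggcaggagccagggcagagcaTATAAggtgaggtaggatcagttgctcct
Alas2, chrX:150547167-150547416, plus strand: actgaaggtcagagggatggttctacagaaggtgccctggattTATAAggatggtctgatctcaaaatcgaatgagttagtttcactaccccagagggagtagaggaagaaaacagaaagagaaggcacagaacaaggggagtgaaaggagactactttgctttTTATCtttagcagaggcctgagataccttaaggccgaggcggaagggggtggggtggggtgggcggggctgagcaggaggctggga
Ppbp, chr5:90768268-90768517, plus strand: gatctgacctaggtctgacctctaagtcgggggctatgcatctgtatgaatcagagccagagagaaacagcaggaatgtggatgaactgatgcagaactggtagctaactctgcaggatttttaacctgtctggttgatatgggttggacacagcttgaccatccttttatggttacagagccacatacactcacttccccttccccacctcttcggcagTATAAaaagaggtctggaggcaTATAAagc
Pf4, chr5:90772185-90772434, plus strand: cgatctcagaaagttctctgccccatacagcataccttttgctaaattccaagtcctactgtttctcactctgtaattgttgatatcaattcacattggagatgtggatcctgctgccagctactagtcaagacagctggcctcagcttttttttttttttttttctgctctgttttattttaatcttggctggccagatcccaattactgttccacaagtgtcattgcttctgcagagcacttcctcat
GATAA begins 182 bases before the start in Hba-a1, 185 in Hba-a2, 209 in Hbb-bs and 204 in Hbb-bt, and on the opposite strand at 86 in Alas2. It is in neither of the windows of Ppbp and Pf4. Among the 32851 promoters of the table, 22.6% hold GATAA on either strand within the same length. TATAA, held by 16% of all promoters on the strand of the gene, begins 27 to 30 bases before the start in the 4 hemoglobin genes at 207 in Alas2 and at 30 and 8 in Ppbp, and Pf4 has none. No marked pair of motifs overlaps. The windows of Hba-a1 and Hba-a2 share an identical run of 247 bases, and the longest run shared by Hbb-bs and Hbb-bt is 14 bases. These matches describe letters and do not show that a factor was bound.

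The hemoglobin genes were lower in the IP+LC tumors by about the same factor. Hbb-bs, the most abundant of the 4, had 1186, 2726 and 5107 CPM in LC replicates 1, 2 and 3, and 508, 772 and 1449 CPM in the IP+LC tumors. The highest IP+LC tumor lay above the lowest LC tumor, so that the groups overlapped. The LC tumors averaged 3006 ± 1975 CPM and the IP+LC tumors 909.7 ± 485 CPM (SD, n = 3 each). The log2 fold change, -1.73 ± 0.54 (SE), was past the limit (edgeR, adjusted p = 0.0426) and is 3.31-fold lower. In bulk tissue, fewer red blood cells and less hemoglobin mRNA in each cell cannot be told apart.
The other beta gene, Hbb-bt, had 222, 438 and 822 CPM in the LC tumors and 97.9, 125 and 226 CPM in the IP+LC tumors. IP+LC replicate 3 lay just above LC replicate 1, and the other tumors were separated. It was 3.32-fold lower, at -1.73 ± 0.47 on the log2 scale (SE, edgeR's adjusted p = 0.0264).
Hba-a1 had 222, 483 and 947 CPM in the LC tumors and 100.1, 165 and 299.9 CPM in the IP+LC tumors. It was 2.94-fold lower, at -1.55 ± 0.53 on the log2 scale (SE, edgeR's adjusted p = 0.0579). Hba-a2, the other alpha gene, had 112, 302 and 547 CPM in the LC tumors and 62.4, 87.6 and 169 CPM in the IP+LC tumors. It was 3.04-fold lower, at -1.60 ± 0.54 on the log2 scale (SE, edgeR's adjusted p = 0.0554). For all 4 genes the tumors fell in the same order, from LC replicate 3 through LC replicate 2, IP+LC replicate 3, LC replicate 1 and IP+LC replicate 2 to IP+LC replicate 1. In each of the 4 genes, the levels of LC replicate 1 and IP+LC replicate 3 were closer to each other than to the rest of their own groups.

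**Figure D1:**
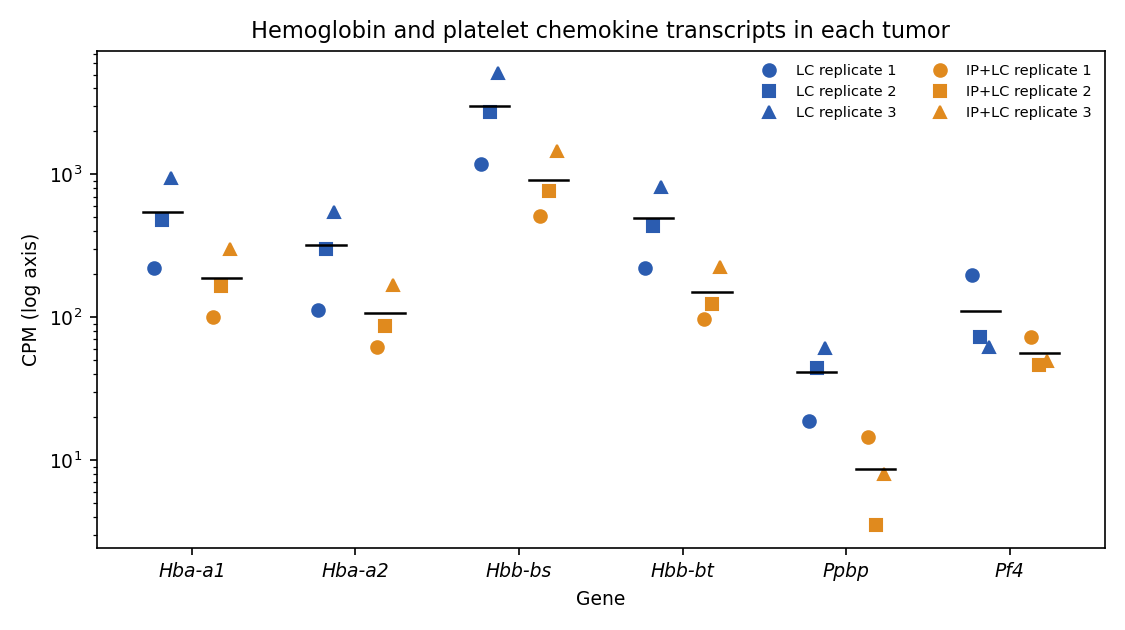
CPM on a log axis for 6 of the 7 genes in each of the 6 tumors, with LC in blue and IP+LC in orange, a symbol for each replicate and a black line at the group mean. The 4 hemoglobin genes repeat one pattern, in which LC replicate 1 lies below IP+LC replicate 3, while Ppbp separates the groups and Pf4 is highest in LC replicate 1.

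The calls of the hemoglobin genes changed when single tumors were left out, as did those over all genes. The latter went from 4088 to 2585 and 3039 without LC replicate 2 or 3. They were 2660 and 2265 without IP+LC replicate 1 or 2, and 6691 without LC replicate 1. Without LC replicate 2, Hba-a1 and Hba-a2 did not pass (adjusted p = 0.119 and 0.125 from edgeR), while Hbb-bs and Hbb-bt did. Both alpha genes then had a log2 fold change of -1.65, against -1.55 and -1.60 with all tumors. Without LC replicate 1 the log2 fold changes of the 4 genes lay between -2.09 and -1.91, and all 4 stayed past the limit. With LC replicate 3, the tumor with the most hemoglobin, left out, they lay between -1.17 and -0.94 and only Hbb-bt stayed past the limit, and the log2 ratio of the summed hemoglobin was -1.07 in place of -1.69. Without IP+LC replicate 1 they lay between -1.48 and -1.23 and without IP+LC replicate 2 between -1.60 and -1.44, and in either case none of the 4 passed it, with adjusted p-values from 0.115 to 0.197 in edgeR's test.

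Summed over the 4 genes, hemoglobin took 0.171% of all UMIs in LC replicate 1 (exact 95% interval 0.160 to 0.182), 0.365% in LC replicate 2 (0.355 to 0.375) and 0.646% in LC replicate 3 (0.632 to 0.659). In the IP+LC tumors it took 0.0789% (0.0742 to 0.0838), 0.121% (0.115 to 0.126) and 0.221% (0.213 to 0.229). None of these 6 intervals, which cover counting error only, overlapped another. The differences between tumors of the same group were therefore also larger than the counting error, 4.26-fold between the lowest and the highest LC tumor and 2.79-fold between the IP+LC tumors in CPM. The sums averaged 4371 ± 2863 CPM over the LC tumors and 1354 ± 710.4 CPM over the IP+LC tumors (SD, n = 3 each), a ratio of the means of 3.23. The hemoglobin rows had little weight in the scaling, since the log2 ratio of -1.69 was also -1.69 when library sizes and TMM factors were computed without them.
The make-up of the hemoglobin UMIs varied far less than their amount. Hba-a1 took 61.5% to 66.5% of the UMIs of both alpha genes over the 6 tumors, with means of 63.8% (LC) and 63.6% (IP+LC). Hbb-bs took 83.9% to 86.5% of the UMIs of both beta genes, with a mean of 85.5% in each group. These shares overlapped between the groups (exact permutation tests, two-sided, p = 1 and p = 0.9, n = 3 per group). The alpha genes together took 19.2%, 19.9% and 20.1% of the hemoglobin UMIs in the LC tumors and 21.1%, 21.95% and 21.9% in the IP+LC tumors. The groups did not overlap, and the means were 19.7% ± 0.491 and 21.7% ± 0.453 (SD, n = 3). The exact permutation test gave p = 0.1 (two-sided), the smallest value that 3 tumors against 3 allow, and 0.45 after adjustment over 9 comparisons of ratios. The exact intervals of single tumors overlapped between the groups, for example 16.8% to 21.7% in LC replicate 1 and 18.7% to 23.7% in IP+LC replicate 1.

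**Figure D2:**
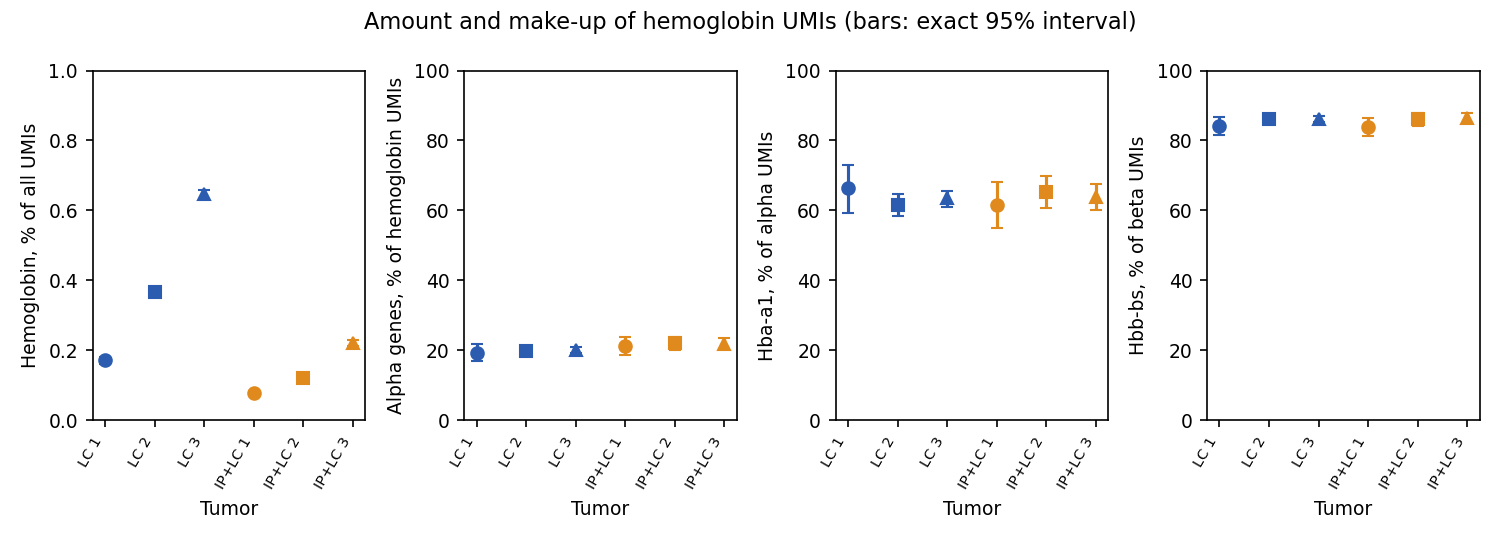
Share of hemoglobin UMIs among all UMIs, of the alpha genes among hemoglobin UMIs, of Hba-a1 among alpha UMIs and of Hbb-bs among beta UMIs, in percent, for each tumor (LC blue, IP+LC orange), with exact 95% intervals as bars. The amount ran from 0.0789% to 0.646% while the other shares stayed within 19.2% to 21.95%, 61.5% to 66.5% and 83.9% to 86.5%.

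How the copies divide the reads bears on these shares. Of the windows of 81 nucleotides, the length of the insert read, that lie in the last 300 nucleotides of the longest coding transcript, 63.2% in Hba-a1 were also found, letter for letter, in Hba-a2, and 55.9% in Hba-a2 were found in Hba-a1. For Hbb-bs and Hbb-bt the shares were 27.7% and 27.3%. The sources used here do not state how reads that match several genes were counted, so that the level of an alpha gene against a beta gene is uncertain. When both alpha genes were summed into 1 row, the result was -1.57 on the log2 scale (edgeR's adjusted p = 0.0584), and for both beta genes it was -1.73 (adjusted p = 0.0408 from edgeR). No window of Alas2, Pf4 or Ppbp was found in another gene.

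Alas2 was near the limit of detection. It had 0, 3 and 11 UMIs in the LC tumors and 0, 3 and 3 UMIs in the IP+LC tumors, so that LC replicate 3 alone exceeded 3 UMIs, and no fold is given. With all genes of at least 1 UMI in the fit it did not pass (edgeR's adjusted p = 0.379). It had 1.26 UMIs for every 1000 hemoglobin UMIs in LC replicate 3 and 1.52 in IP+LC replicate 2, and the counts of 0 fell in the tumors with the lowest hemoglobin share of each group. A count of 0 among 1012 and 1060 hemoglobin UMIs allows up to 0.364% and 0.347% by the exact interval. Other genes overlap 15.5% of the exonic bases of Alas2, among them Apex2, and the use of strand in the counting is not given in the sources used here.
The other erythroid genes ranged from 0 UMIs to levels that could be tested. Klf1, the erythroid Krüppel-like factor, and Rhd had 0 UMIs in all 6 tumors. Slc4a1, the anion exchanger band 3 of the red cell membrane, and the transcription factor gene Gata1 each had 0, 1 and 2 UMIs in the LC tumors and 0 in all IP+LC tumors. Other low genes were above this, with 5, 19 and 10 against 5, 6 and 5 UMIs for the transcription factor gene Tal1 and 2, 18 and 23 against 8, 5 and 3 UMIs for Dmtn, which encodes dematin of the membrane skeleton. Add2, the beta adducin gene, had 0, 1 and 0 against 3, 5 and 5 UMIs. These 5 are named after their values were seen. Of 40 other erythroid genes, 34 were in the tables and 11 were tested. In the IP+LC group 4 of the 11 were lower, 2 were higher and 5 did not pass. Their median log2 fold change was -0.38, against 0.02 over all tested genes, of which 19.6% were lower and 16.8% higher at the same limit.
Several of the genes of the list that moved are also used by other cells. The lower ones were Tmcc2 (log2 fold change -2.29, adjusted p = 0.00151), Car2, a carbonic anhydrase (-1.24, 0.00808), Lmo2, a transcriptional cofactor of blood and endothelial cells (-1.05, 0.00539), and Bpgm, which makes 2,3-bisphosphoglycerate, the ligand that lowers the oxygen affinity of hemoglobin (-0.65, 0.0855), all by edgeR. The higher ones were Ube2l6, a ubiquitin-like conjugating enzyme that interferon induces (1.45, adjusted p = 0.00353 from edgeR), and the mitochondrial iron importer gene Slc25a37 (0.97, 0.013). The most abundant genes of the list also included Epb41, protein 4.1 of the membrane skeleton, and Mkrn1, a ubiquitin ligase, which did not pass. Epb41 had 79.1 ± 10.4 and 61.5 ± 5.04 CPM (SD, n = 3, adjusted p = 0.190 from edgeR), and Mkrn1 had 83.4 ± 6.50 and 78.9 ± 4.70 CPM (adjusted p = 0.790). The 23 genes of the list that had too few UMIs for a test summed to 36.2, 83.05 and 86.4 CPM in the LC tumors and to 28.3, 22.2 and 21.8 CPM in the IP+LC tumors. All 3 LC sums lay above the IP+LC sums.
The other enzymes of heme synthesis, which every nucleated cell uses, are given beside the hemoglobin genes. Of 8 enzymes tested, 1 was lower, 1 was higher and 6 did not pass, with a median log2 fold change of 0.05. Over all tested genes 19.6% were lower and 16.8% higher, so that these counts do not set the list apart. Summed, the enzymes had 387 to 428 CPM in the LC tumors and 310 to 365 CPM in the IP+LC tumors, without overlap. Alas1, the form of the starting enzyme outside red cells, was lower (185 ± 14.7 and 98.5 ± 18.5 CPM, log2 fold change -0.91, adjusted p = 0.0131 from edgeR). Cpox, which oxidises coproporphyrinogen, was higher (1.13, adjusted p = 0.0194 from edgeR). Fech, which inserts the iron, had 58.1 ± 12.7 and 40.4 ± 1.78 CPM (SD, n = 3) and an adjusted p of 0.124 from edgeR. Alad, the second enzyme of the pathway, had 50.0 ± 16.9 and 52.5 ± 7.92 CPM and an adjusted p of 0.784.

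Ppbp was the most changed of the 7 genes and was separated between the groups. It encodes the precursor of beta-thromboglobulin and of NAP-2, a ligand of the neutrophil receptor CXCR2. It had 11, 56 and 72 UMIs in the LC tumors and 20, 6 and 11 UMIs in the IP+LC tumors, which were 18.9, 43.9 and 61.01 CPM against 14.5, 3.50 and 7.99 CPM. Every IP+LC tumor lay below every LC tumor in CPM, as it did for 21.5% of all tested genes. The LC tumors averaged 41.3 ± 21.2 CPM and the IP+LC tumors 8.66 ± 5.53 CPM (SD, n = 3 each). This was 5.11-fold lower, at -2.35 ± 0.50 on the log2 scale (SE, edgeR's adjusted p = 0.0101). With each tumor left out in turn, it stayed between -2.90 and -1.90 and past the limit.
Within a tumor, Ppbp did not keep a fixed ratio to hemoglobin. For every 1000 hemoglobin UMIs there were 10.9, 11.1 and 8.22 UMIs of Ppbp in the LC tumors, a narrow range, and 18.9, 3.05 and 3.73 in the IP+LC tumors. IP+LC replicate 1, with the lowest hemoglobin of all tumors, had the highest ratio. The exact 95% interval of the share of Ppbp in Ppbp and hemoglobin UMIs was 1.13% to 2.85% in that tumor and 0.112% to 0.660% in IP+LC replicate 2, so that these 2 tumors differed by more than the counting error. Between the groups the ratio was 10.1 ± 1.60 and 8.55 ± 8.94 (SD, n = 3, exact permutation p = 0.9, two-sided), and its difference was not beyond the spread.

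Pf4, which encodes platelet factor 4, a chemokine that binds heparin, followed neither Ppbp nor hemoglobin. It had 114, 93 and 73 UMIs in the LC tumors and 100, 80 and 68 UMIs in the IP+LC tumors, which were 196, 72.9 and 61.9 CPM against 72.5, 46.7 and 49.4 CPM. LC replicate 1 was far above the other 5 tumors, which lay close together, and IP+LC replicate 1 overlapped the LC group. The LC tumors averaged 110.3 ± 74.6 CPM and the IP+LC tumors 56.2 ± 14.2 CPM (SD, n = 3 each). The log2 fold change of -0.93 ± 0.43 (SE) did not pass the limit (edgeR, adjusted p = 0.139), but did when no filter on low counts was used (-0.82, adjusted p = 0.0282). With the filter it was -0.26 with LC replicate 1 left out (adjusted p = 0.308) and -1.23, past the limit, with LC replicate 3 left out (adjusted p = 0.0724, both from edgeR).
The share of Ppbp among the UMIs of both chemokines was 8.80%, 37.6% and 49.7% in the LC tumors and 16.7%, 6.98% and 13.9% in the IP+LC tumors. LC replicate 1 lay within the IP+LC range, and the difference of the means did not exceed the spread (exact permutation p = 0.3, two-sided, n = 3 per group). For every 1000 hemoglobin UMIs there were 113, 18.5 and 8.34 UMIs of Pf4 in the LC tumors and 94.3, 40.7 and 23.03 in the IP+LC tumors. In both groups the tumor with the least hemoglobin had the most Pf4 for it.

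**Figure D3:**
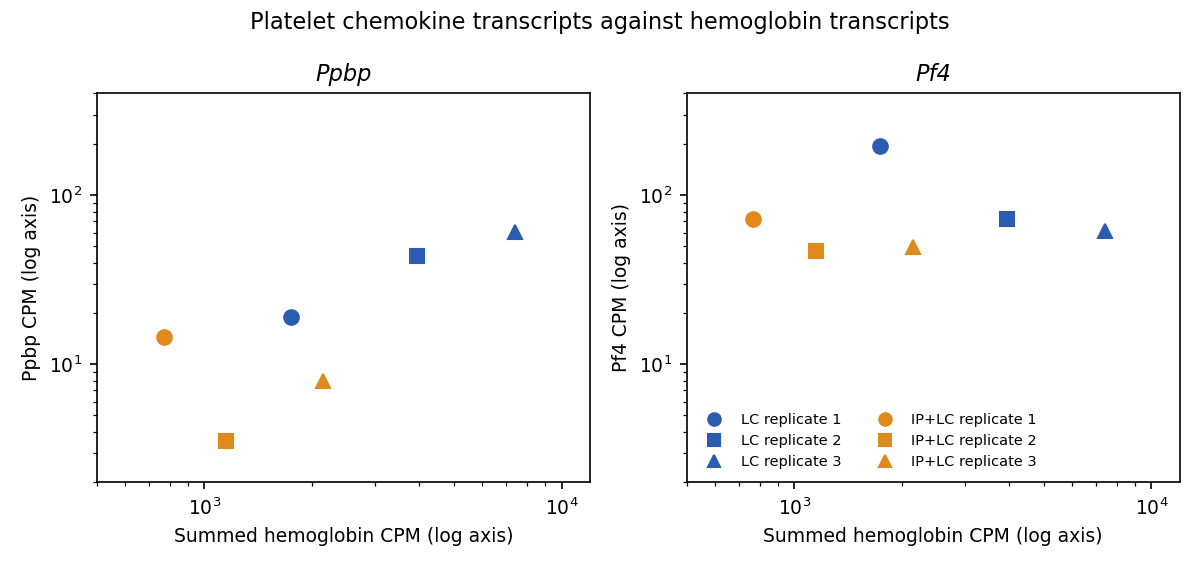
CPM of Ppbp (left) and Pf4 (right) against the summed CPM of the 4 hemoglobin genes, all on log axes, with 1 point for each tumor (LC blue, IP+LC orange). Ppbp was highest in the LC tumors with the most hemoglobin, while Pf4 was highest at 196 CPM in LC replicate 1, whose hemoglobin was 1743 CPM.

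Because macrophages also express Pf4, their markers are given beside it. Of 13 macrophage markers, 12 were tested, of which 4 were higher, 2 were lower and 6 did not pass in the IP+LC group. The shares over all tested genes were 16.8% higher and 19.6% lower. The Fc receptor gene Fcgr1 (log2 fold change 2.42) and the complement genes C1qa (1.36) and C1qc (1.28) were higher, and Lyve1 (-1.64), which lymphatic vessels also express, was lower (adjusted p = 0.00162, 0.0896, 0.0815 and 0.00466 in this order, from edgeR). Apoe, the most abundant, had an adjusted p of 0.376. The 13 markers summed to 4932 CPM in LC replicate 1, to 2151 and 1893 CPM in the other LC tumors and to between 3314 and 4115 CPM in the IP+LC tumors, and no marker was at 0 in all tumors. LC replicate 1 was the highest tumor for Pf4 and for this sum, of which Apoe made up 2442 CPM there and 872 to 1197 CPM in the other tumors. Without Apoe, an alternative chosen after seeing the data, the other 12 markers summed to 2490.0 CPM in LC replicate 1, to 1162 and 952 CPM in the other LC tumors and to 2443, 3044 and 2745 CPM in the IP+LC tumors, so that LC replicate 1 was not the highest. For every 100 CPM of the macrophage sum there were 3.98, 3.39 and 3.27 CPM of Pf4 in the LC tumors and 2.19, 1.13 and 1.25 CPM in the IP+LC tumors. The groups did not overlap (means 3.55 ± 0.382 and 1.52 ± 0.577, SD, n = 3, exact permutation p = 0.1, two-sided, the smallest possible, and 0.45 after adjustment over the 9 comparisons), and did not overlap without Apoe either, at 6.27 to 7.88 CPM and 1.53 to 2.97 CPM. The part of macrophages in the level of Pf4 was not tested.

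The other megakaryocyte and platelet genes were mixed. Of 31 listed genes, 30 were in the tables and 14 were tested, and in the IP+LC group 5 were lower, 1 was higher and 8 did not pass. Their median log2 fold change was -0.56, against 0.02 over all tested genes, of which 19.6% were lower and 16.8% higher at the same limit. Without LC replicate 1, 9 were lower and 4 were higher of 18 tested, while the calls over all genes also rose, from 4088 of 11240 to 6691 of 11748. The lower genes were the G protein gamma subunit Gng11 (228 ± 37.5 and 55.8 ± 9.02 CPM, log2 fold change -2.03, adjusted p = 0.000918), Vwf, the von Willebrand factor (-1.68, 0.00221), the postsynaptic and platelet calmodulin-binding protein Nrgn (-1.49, 0.0317), the multimerin gene Mmrn1 (-1.41, 0.014) and the tetraspanin Cd9 (-0.86, 0.0121), all by edgeR. Endothelial cells also express Gng11, Vwf and Mmrn1, and epithelial cells express Cd9. Fermt3, the kindlin of platelets and leukocytes, was higher (0.76, adjusted p = 0.038 from edgeR). The cyclooxygenase gene Ptgs1 had 109 ± 30.3 and 142 ± 7.85 CPM (SD, n = 3) and did not pass (adjusted p = 0.273).
Another 16 genes of the list had too few UMIs for a test, and they did not all go one way. Clec1b, the podoplanin receptor CLEC-2, had 2, 17 and 24 UMIs in the LC tumors and 3, 1 and 5 in the IP+LC tumors. Rgs18 had 4, 21 and 22 against 6, 3 and 6 UMIs. Itga2b, the platelet integrin alpha IIb, had 3, 7 and 15 against 2, 4 and 4 UMIs, and Gp9, of the von Willebrand receptor, 1, 10 and 9 against 3, 2 and 1. Selp, the P-selectin gene that endothelium also expresses, had 4, 4 and 6 against 17, 15 and 7 UMIs, and the ADP receptor gene P2ry1 0, 1 and 1 against 4, 4 and 1. These 6 are named after their values were seen. Of the tested platelet genes, the integrin beta 3 gene Itgb3 and the ADP receptor gene P2ry12, also named after their values were seen, did not pass (adjusted p = 0.172 and 0.173 from edgeR). Together, the 16 untested genes summed to 34.4, 75.2 and 102 CPM in the LC tumors and to 35.5, 24.5 and 26.1 CPM in the IP+LC tumors. LC replicates 2 and 3 were the highest, as for Ppbp and hemoglobin, and LC replicate 1 lay within the range of the IP+LC tumors. The whole list summed to 1453 to 1783 CPM in the LC tumors and to 1030 to 1086 CPM in the IP+LC tumors, without overlap. Cd9 was the most abundant part of it, with means of 776 and 428 CPM.

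Markers of vessels and some markers of leukocytes were lower as well. Of all tested genes, 19.6% passed as lower and 16.8% as higher, and 21.5% were lower without overlap of the tumors. All 16 endothelial markers passed the test as lower in IP+LC, without overlap of the tumors, and their median log2 fold change was -1.74. Calcrl, the calcitonin-like receptor (-2.46, adjusted p = 0.00304 from edgeR), its partner Ramp2 (-2.73, 0.000993), the tight junction gene Cldn5 (-2.26, 0.000909), the angiopoietin receptor gene Tek (-2.60, 0.000859) and Egfl7 (-1.82, 0.000859) were among them. The markers summed to 2857, 4617 and 4128 CPM in LC replicates 1, 2 and 3 and to 1047, 905 and 1127 CPM in the IP+LC tumors. Hemoglobin relative to this sum was 0.610, 0.855 and 1.80 in the LC tumors and 0.734, 1.27 and 1.90 in the IP+LC tumors, which overlapped (means 1.09 ± 0.627 and 1.30 ± 0.585, SD, n = 3, exact permutation p = 0.7, two-sided). For every 100 endothelial CPM there were 1.03 ± 0.413 and 0.827 ± 0.509 CPM of Ppbp (exact permutation p = 0.6, two-sided, n = 3 per group). The part of vessel content in the hemoglobin and Ppbp levels was not tested.
Of 14 neutrophil markers, 8 were tested, of which 4 were lower and 4 did not pass, with a median of -1.39. The calprotectin genes S100a8 (-2.39, adjusted p = 0.00563) and S100a9 (-2.66, 0.00364), Retnlg (-2.70, 0.000859) and the lactoferrin gene Ltf, which airway glands also express (-1.998, 0.00157), were the lower ones by edgeR. The receptor genes Csf3r (-0.23, adjusted p = 0.653) and Cxcr2 (-0.29, 0.663) and the proteases Mmp8 (-0.79, 0.175) and Mmp9 (1.13, 0.142) did not pass, and are named after their values were seen. The markers, of which S100a9 and S100a8 were the most abundant, summed to 1038, 1211 and 2150 CPM in the LC tumors, highest in the tumor with the most hemoglobin, and to between 334 and 396 CPM in the IP+LC tumors. No neutrophil marker was at 0 in all tumors. Of 8 B cell markers, 6 were lower and 2 did not pass (median -1.35), with Ighd at -1.72 (adjusted p = 0.00567 from edgeR) and Cd79b at -1.88 (0.00886). The immunoglobulin genes Igkc and Ighm had adjusted p-values of 0.150 and 0.447.
The monocyte markers divided. Of 8 tested, 4 were higher and 2 were lower (median 0.60), where 16.8% and 19.6% of all tested genes were. Plac8 (0.83, adjusted p = 0.0219 from edgeR) and Ccr2 (0.67, 0.0682), the receptor of inflammatory monocytes, were higher. Ace (-1.80, 0.00143), which capillary endothelium also expresses, and Nr4a1 (-1.46, 0.0068), which patrolling monocytes need, were lower. Of other markers of patrolling monocytes, both named after their values were seen, Cx3cr1 was higher (1.18, adjusted p = 0.0772 from edgeR) and Spn did not pass (-0.44, 0.279). Not all leukocyte markers were therefore lower together with the hemoglobin genes. In whole tissue, leukocytes in the blood and those within the tumor cannot be told apart.

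**Figure D4:**
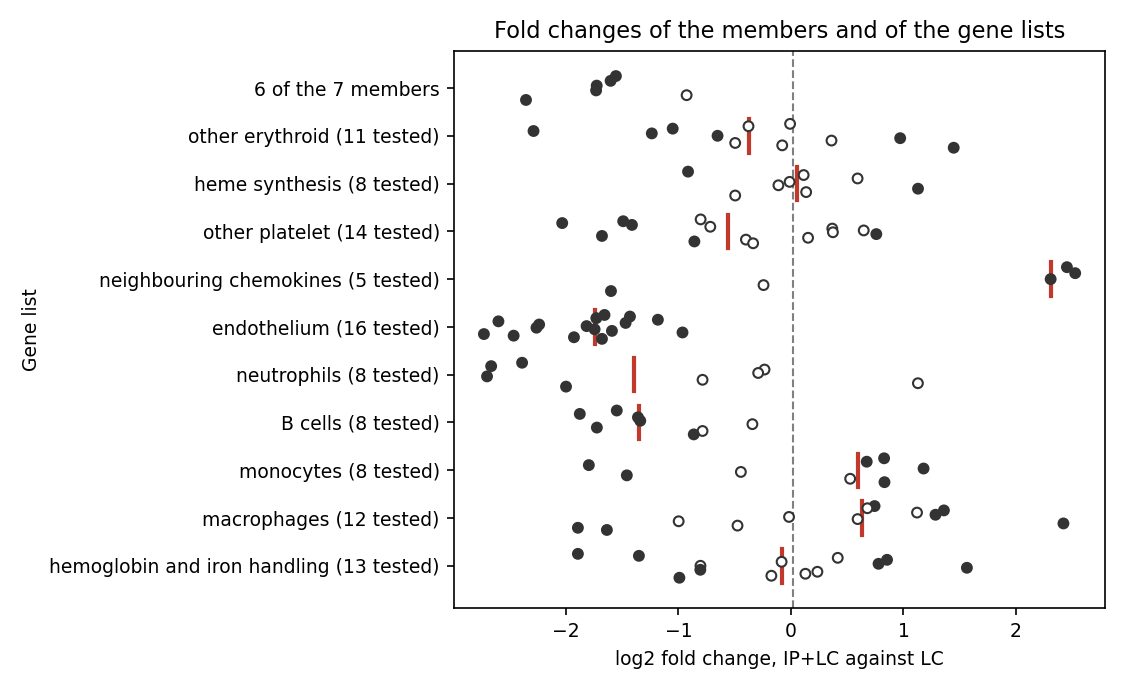
log2 fold change of IP+LC against LC for 6 of the 7 genes and for the tested genes of each list, with filled points for an adjusted p below 0.1, a red line at each list's median and a dashed line at the median of all tested genes. The 16 endothelial points are all below 0, while the heme synthesis, macrophage and monocyte lists lie on both sides.

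The genes with the most similar pattern were looked for by Pearson's r of log2(CPM + 1) over the 6 tumors, which fall into 2 groups, so that r is given only as a description. For Hbb-bs these were Hba-a1 (r = 0.998), Spef2, Anp32a, Hbb-bt and Hba-a2 (0.996, 0.996, 0.996 and 0.995). The other 3 hemoglobin genes were thus among the 5 nearest to Hbb-bs. Of the 5 nearest to Hba-a1 and to Hba-a2, 2 were hemoglobin genes each, and of those nearest to Hbb-bt 1 was, and Syap1 was the nearest to Hba-a2. For Alas2 the 5 nearest were Sirt1, Unc5c, Supt20, Rasgef1b and Klre1, with r between 0.976 and 0.984, and no hemoglobin gene was among them. For Ppbp they were Smoc2, Bbs2, Abi3bp, Podn and Csad (0.992 to 0.998). For Pf4 they were Prkag2, Tmem242, Dbi, Pcbd2 and Gm12311 (0.985 to 0.987). The r of Ppbp with Hbb-bs was 0.765, and that of Pf4 was -0.06 with Hbb-bs and 0.306 with Ppbp.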

How the data were processed

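Tumor RNA from the LC and IP+LC models (3 tumors each) was sequenced by bulk RNA barcoding from an oligo-dT primer. Per the paper's methods, the authors extracted UMIs with UMI-tools 1.1.1, trimmed reads with Trim Galore 0.6.7, aligned them to GRCm38 with HISAT2 2.2.1, assigned them with featureCounts 2.0.1 and counted the different UMIs of each gene. The deposited values are these counts, without normalization, in 1 table for each tumor. The annotation release is not given in the sources used here. UMI counts limit precision to the molecules sampled.
Symbols were matched exactly, and identifiers to GENCODE M21, with 31130 of 31130 found. Genes kept by filterByExpr were scaled by TMM and tested by edgeR 4.0.16's quasi-likelihood test in R 4.3.3, without a block, with Benjamini-Hochberg adjustment and the limit of 0.1 that the study uses. The standard error is the size of the log2 fold change divided by the square root of F. The procedure was tested on simulated data. Ratios within tumors were compared by exact permutation tests, and intervals are exact binomial (Clopper-Pearson) at 95%.
The members and lists were chosen with earlier results of these data known. Genes were named as members, as the 3 most abundant and the 2 with the smallest p-value in each list, as called erythroid and platelet genes, as markers at 0, or as the 5 most similar genes. A few others are marked as named after their values were seen. The alternatives were other scalings, scaling without hemoglobin, other filters, DESeq2 1.42.0, limma voom 3.58.1, robust fitting, a replicate block, thinning to 592733 UMIs, a limit of 0.05, summed copies and each tumor left out.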

Additional observations from a re-analysis of the deposited data

How the results depend on the processing

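All log2 fold changes of the 6 tested members were negative under each of their 17 to 19 alternatives. Ppbp was past the limit in all 17, with adjusted p-values from 1.74e-09 to 0.0579, and had no value with at least 10 UMIs in every library. At a limit of 0.05, 3 members were called, and Hba-a1 (-1.55) and Hba-a2 (-1.60) were lost. Pf4 passed without a filter (-0.82), with a replicate block (-0.81) and with LC replicate 3 left out (-1.23), and in none of its other 15 alternatives. Leaving out each tumor in turn gave 2265 to 6691 genes called and 1 to 5 members, and log2 fold changes of -2.03 to -0.94 for Hba-a1, -2.07 to -1.01 for Hba-a2, -2.20 to -1.13 for Hbb-bs, -2.12 to -1.17 for Hbb-bt, -1.23 to -0.26 for Pf4 and -2.90 to -1.90 for Ppbp. Leaving out a tumor ended the call of Hba-a1 and Hba-a2 for LC replicates 2 and 3 and IP+LC replicates 1 and 2, that of Hbb-bs for LC replicate 3 and IP+LC replicates 1 and 2, and that of Hbb-bt for IP+LC replicates 1 and 2. The cause was not tested. Thinning left 2379 genes called instead of 4088, with fewer UMIs in 5 libraries and 8876 genes tested, and 5 members were called. Of the other platelet genes, 6 were called, against 3 after thinning and 13 without LC replicate 1. Library size in place of TMM moved the median log2 fold change of all tested genes by 0.16 and gave 2520 genes higher and 1800 lower, against 1885 and 2203. The replicate block called 6 members and 3410 genes. The same numbers did not pair the tumors, since the deviations of same-numbered tumors had r of 0.03, -0.12 and 0.11, and not every tumor matched its own number best. Of the log2 ratio of summed hemoglobin, 9 of 9 alternatives lay between -2.19 and -1.07, the latter with LC replicate 3 left out. The number of UMIs limits Alas2 and the 16 genes of the platelet list that were under the filter.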

Other observations

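Genes that take up hemoglobin, heme and iron did not move as a block. Of 16 listed, 13 were tested, and in the IP+LC group 4 were lower, 3 were higher and 6 did not pass. Their median log2 fold change was -0.08. The shares over all tested genes were 19.6% lower and 16.8% higher. Haptoglobin (Hp), which binds free hemoglobin, fell from 820.5 ± 190.4 to 322 ± 82.4 CPM (SD, n = 3, log2 fold change -1.35, adjusted p = 0.0073 from edgeR). Slc11a1, the phagosomal metal transporter NRAMP1 of macrophages, was higher (1.56, adjusted p = 0.00554 from edgeR). The ferritin genes Fth1 and Ftl1, the most abundant of the list, had 4776 ± 757 and 331 ± 51.0 CPM in the LC group and 5621 ± 749.98 and 361 ± 32.8 CPM in the IP+LC group, and did not pass (adjusted p = 0.514 and 0.671).
The other chemokine genes of the cluster on chromosome 5 that also holds Ppbp and Pf4 were mixed. Of 5 tested, 3 were higher, 1 was lower and 1 did not pass, where 16.8% of all tested genes were higher and 19.6% lower. Among these 5, the neutrophil attractants Cxcl1 (log2 fold change 2.45, adjusted p = 0.00494 from edgeR), Cxcl2 (2.53, 0.00651) and Cxcl3 (2.31, 0.00511) were higher in the IP+LC group. Cxcl15, also called lungkine and expressed by lung epithelium, was lower (2199 ± 238 and 726 ± 120.4 CPM, -1.60, adjusted p = 0.00182). Cxcl5, the neighbour of Ppbp, had 4, 18 and 12 UMIs in the LC tumors and 19, 11 and 11 in the IP+LC tumors, with an adjusted p of 0.694, and is named after its values were seen.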
